A study of Mus musculus with 4 samples.

Results

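Fatty acid synthesis and desaturation genes were examined in YFP-positive neural stem cells from mice that had lost Opa1 (Opa1 KO) and from wild-type (WT) mice. The genes were chosen by name, with earlier results of these data known, and no measured value enters the choice rule. They are Acly, Me1, Acaca, Fasn, Elovl6, Scd1, Scd2, Fads1, Fads2 and Srebf1. These are 10 of the 55421 gene identifiers counted, and all 10 had values well above the minimum set for testing, in both genotypes. New fatty acids are built in the cytosol from acetyl-CoA, which is made from citrate that mitochondria export, and from malonyl-CoA, with NADPH as the reductant. Elongases and desaturases of the endoplasmic reticulum then lengthen the chains and introduce cis bonds, and the transcription factor SREBP-1 drives much of the program. In neural stem cells this pathway is known for its link with proliferation, and in oligodendrocytes and astrocytes for supplying membrane and myelin lipids.

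The bulk RNA-seq data comprise 2 Opa1 KO libraries and 2 WT libraries. By the study's methods, the knockouts were young adult Nestin-CreERT2 mice with floxed Opa1 alleles and a Rosa26 YFP reporter, and the controls carried the same Cre and reporter without them. Mice of both sexes were used, on a C57/BL/6 background and heterozygous for Cre. Both genotypes received tamoxifen by gavage, and YFP-positive cells were sorted from the subventricular zone, the stem cell niche along the lateral ventricles. The study's text gives that sort at different times after tamoxifen, about a month in its methods and an earlier time elsewhere, and the labels give none. Nestin also drives Cre in some other cells and YFP stays on in descendants, so the sort holds more than stem cells. The labels do not say whether libraries came from separate animals or from pools, and p-values therefore describe the spread among these 4 libraries, part or all of which may be technical. In bulk samples, fewer cells of a type and less RNA per cell cannot be told apart.

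Reads assigned to genes numbered 19985853 and 22285901 in the Opa1 KO libraries, against 23237326 and 22825629 in the WT libraries. Opa1 itself (ENSMUSG00000038084), which encodes a GTPase of the inner mitochondrial membrane, had normalised read counts of 837 and 739 in Opa1 KO, against 3039 and 2833 in WT, in the direction of the labels. With genotype as the only term, limma-trend called 0 of 18547 genes at an adjusted p under 0.05 (0% called), and 666 genes, or 3.59%, passed 0.05 before adjustment. A count test, edgeR's quasi-likelihood fit, called 0 genes too, and 704 had an unadjusted p under 0.05 there. DESeq2 called 61 of the same 18547 genes (0.329%), and 214 of the 16312 genes to which it gave an adjusted p when run on all genes (1.31%). Opa1, with a log2 fold change of -1.90, was thus not called by limma-trend (adjusted p 0.998) or edgeR (adjusted p 0.9999). DESeq2 called it, with an adjusted p of 1.3e-24 on the genes limma tested. None of the markers of 9 cell types was at 0 in every library. All 11 neuroblast markers, such as Dcx, were lower in mean in Opa1 KO, with summed levels of 116666 and 96406 in Opa1 KO against 151723 and 131169 in WT. Of 12 neural stem cell and astrocyte markers, 9 were higher in mean, among them Slc1a3 and Gfap. The other 3, named after their values were seen, were Nes (log2 fold change -0.27), Sox2 (-0.018) and Fabp7 (-0.088). The summed levels of the 12 were 130899 and 142362 in Opa1 KO against 98054 and 101717 in WT. Without overlap between genotypes were all 11 neuroblast markers, as lower, and 5 of these 12, as higher. Over all genes tested these shares were 15.7% and 15.2%. DESeq2 on all genes called 1 neuroblast marker as lower and 4 of these 12 as higher.

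Among the 10 genes Scd1 differed most, at 1.68-fold its WT level in Opa1 KO, and the other 9 had log2 fold changes between -0.25 and 0.24 whose intervals all included 0. In mean level, 6 genes were higher in Opa1 KO, namely Srebf1, Me1 and the desaturases Scd1, Scd2, Fads1 and Fads2. The other 4, Acly, Acaca, Fasn and Elovl6, were lower. The median log2 fold change of the 10 genes was 0.17, beside -0.0073 over all genes tested. This median depended on each library. Leaving out WT replicate 1 gave 0.0076 and leaving out WT replicate 2 gave 0.27, while leaving out Opa1 KO replicate 1 gave 0.25 and leaving out its replicate 2 gave 0.031. By limma-trend 0 of the 10 genes were called and 1, Scd1, had an unadjusted p under 0.05 as higher, as had 2.53% of all genes. The edgeR quasi-likelihood test and DESeq2 on the same genes called 0 of them, and DESeq2 on all genes called Scd1 as higher, as it did 0.913% of genes.

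**Figure D1:**
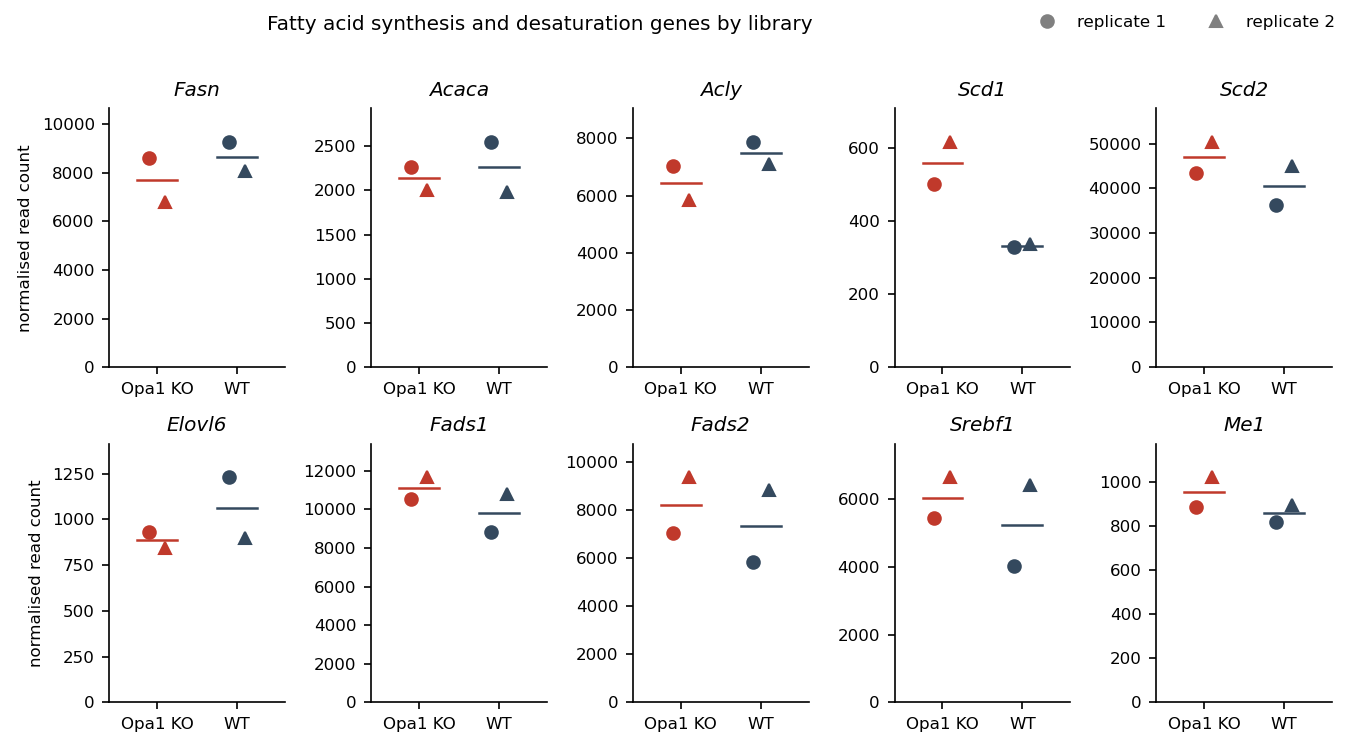
Normalised read count of each of the 10 genes in the Opa1 KO libraries (red, left) and the WT libraries (blue, right) on axes that start at 0, with circles for replicate 1, triangles for replicate 2 and a line at the mean of each genotype. Both Opa1 KO values lie above both WT values for Scd1 and below them for Acly, while for the other 8 genes the genotypes overlap.

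Acly makes cytosolic acetyl-CoA by cleaving citrate, and so opens the pathway. Its normalised read counts (ENSMUSG00000020917, mm10 chr11:100476353-100528000, minus strand) were 7019 and 5853 in Opa1 KO, against 7864 and 7096 in WT. The genotypes did not overlap, with Opa1 KO lower by a narrow margin between Opa1 KO replicate 1 and WT replicate 2. The mean was 6436 ± 824 in Opa1 KO and 7480 ± 543 in WT (SD, n = 2 each), a log2 fold change of -0.22 (SE 0.15, 95% interval -0.63 to 0.19) with an adjusted p of 0.998 by limma-trend. Fold changes here are log2(value + 1) in Opa1 KO minus that in WT, which understates the change of low genes, and the intervals given are for single genes, unadjusted.

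Me1, the cytosolic malic enzyme, yields NADPH for chain building. Me1 (ENSMUSG00000032418, mm10 chr9:86581371-86695953, minus strand) had 889 and 1022 normalised reads in Opa1 KO, against 822 and 898 in WT. The higher WT library lay just above the lower Opa1 KO library, so the genotypes overlapped. Its log2 fold change was 0.15 (SE 0.15, 95% interval -0.24 to 0.54) and was not separated from the spread between libraries.

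Acaca, acetyl-CoA carboxylase, makes malonyl-CoA in the step that commits carbon to fatty acids. Acaca (ENSMUSG00000020532, mm10 chr11:84129672-84401651, plus strand) had 2267 and 2006 normalised reads in Opa1 KO, against 2544 and 1985 in WT. Both Opa1 KO libraries lay between the WT libraries, and the log2 fold change of -0.08 (SE 0.17, 95% interval -0.54 to 0.39) was the smallest of the 10 in size. Leaving out WT replicate 1 turned it to 0.10, and leaving out Opa1 KO replicate 2 to 0.013.

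Fasn, fatty acid synthase, carries out every step of chain growth up to palmitate on a single large protein. Fasn (ENSMUSG00000025153, mm10 chr11:120805846-120824547, minus strand) had 8607 and 6808 normalised reads in Opa1 KO, against 9249 and 8048 in WT. The lowest library was Opa1 KO replicate 2 and the highest WT replicate 1, with the other Opa1 KO library above the other WT library. The mean was 7708 ± 1273 in Opa1 KO and 8648 ± 849 in WT (SD, n = 2 each), and the log2 fold change was -0.17 (SE 0.18, 95% interval -0.64 to 0.30). An interval of this width leaves room for a lower level of the size measured for Acly as well as for a higher one.

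Acly and Fasn were both lower in the library numbered 2 of each genotype, and their RefSeq promoter windows are shown because each holds a motif of those searched. Each runs from 250 bases before to 50 bases after an annotated start site of RefSeq on GRCm38.p6, the assembly of mm10, and is written on the gene's strand. Capitals mark, on either strand, CCAAT, the letters bound by NF-Y, together with CATGTG and CACGTG, 2 E-box forms, and TCACNCC, the core of a sterol regulatory element.
Fasn, chr11:120824498-120824797, minus strand: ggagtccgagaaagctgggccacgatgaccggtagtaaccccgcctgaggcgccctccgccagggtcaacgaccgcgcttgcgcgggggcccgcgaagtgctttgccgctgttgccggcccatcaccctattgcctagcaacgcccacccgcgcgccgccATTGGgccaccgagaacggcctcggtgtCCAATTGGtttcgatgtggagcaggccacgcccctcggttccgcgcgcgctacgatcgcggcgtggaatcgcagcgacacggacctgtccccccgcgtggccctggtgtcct
Acly, chr11:100527951-100528250, minus strand: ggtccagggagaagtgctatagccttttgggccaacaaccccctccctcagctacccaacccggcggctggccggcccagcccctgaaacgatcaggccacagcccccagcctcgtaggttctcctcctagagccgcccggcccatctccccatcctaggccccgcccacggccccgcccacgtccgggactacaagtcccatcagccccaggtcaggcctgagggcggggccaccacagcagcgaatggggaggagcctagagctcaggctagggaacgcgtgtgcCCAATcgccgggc
The Fasn window held 3 CCAAT matches, at -90, -62 and -59 from the start site, of which the last pair overlap on opposite strands. The Acly window held 1, at 37 past the start site. CCAAT stood in 37.4% of all 32851 mouse windows of this length and in the windows of 4 of the 7 fatty acid genes that had one (Fasn, Acly, Srebf1 and Me1), and in those of all 12 cholesterol synthesis and uptake genes with a window. The windows of these 7 genes held no match to TCACNCC (15.6% of all windows) or to CACGTG (7.15%). GGGCGG, the GC box bound by SP1 and not in capitals above, was in the windows of Acly, Srebf1, Me1 and Fads2 (35.7% of all windows). A match is a string of letters and not a measured site, and a missing match says only that these letters are not in the window. The remaining genes with a window were Acaca and Elovl6, and Scd1, Scd2 and Fads1 were not matched to a window.

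Elovl6 lengthens palmitate to stearate, the saturated chain that stearoyl-CoA desaturases act on. Elovl6 (ENSMUSG00000041220, mm10 chr3:129532355-129638495, plus strand) had 929 and 844 normalised reads in Opa1 KO, against 1229 and 900.4 in WT. WT replicate 1 stood above the other 3 libraries, which lay close together. The log2 fold change was -0.25 (SE 0.20, 95% interval -0.78 to 0.28), and the difference was -0.40 between the libraries numbered 1 and -0.09 between those numbered 2.

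Scd1, a stearoyl-CoA desaturase that makes oleate and palmitoleate, had the clearest difference of the 10 genes. Its normalised read counts (ENSMUSG00000037071, mm10 chr19:44394455-44407879, minus strand) were 499.5 and 615 in Opa1 KO, against 328 and 335 in WT. Both Opa1 KO libraries lay above both WT libraries, and the gap between the genotypes was wider than the distance between replicates in either. The mean was 557 ± 81.4 in Opa1 KO and 332 ± 5.06 in WT (SD, n = 2 each), a log2 fold change of 0.74 (SE 0.18, 95% interval 0.26 to 1.21). The unadjusted p was 0.012 and the adjusted p over all genes 0.998 by limma-trend, and the adjusted p was 0.9999 by the edgeR quasi-likelihood test. DESeq2 gave an adjusted p of 0.25 on the genes limma tested and 0.024 on all genes, so the call depended on the tool and on the genes it was run with. Leaving out each library in turn gave log2 fold changes of 0.59 to 0.89.

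Scd2 is the stearoyl-CoA desaturase that predominates in mouse brain. Scd2 (ENSMUSG00000025203, mm10 chr19:44293674-44306864, plus strand) had 43500 and 50283 normalised reads in Opa1 KO, against 36202.5 and 44957 in WT. In each replicate number the Opa1 KO library was the higher, but WT replicate 2 lay above Opa1 KO replicate 1. The log2 fold change was 0.21 (SE 0.18, 95% interval -0.27 to 0.70). Per kilobase of exon, Scd1 made up 1.27% and 1.35% of the Scd1 and Scd2 total in Opa1 KO, against 1.003% and 0.827% in WT. Scd1 was thus the minor gene of the pair in every library, with a share of 1.31 ± 0.0569% in Opa1 KO and 0.915 ± 0.125% in WT (SD, n = 2 each).

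Reads that fit both genes cannot be placed with certainty. Of all 50-base runs in Scd1 transcripts, 2.97% also occur in Scd2, 3.42% in Scd3 and 1.72% in Scd4, further members of the family. Scd3 itself had at most 41.2 normalised reads in any library, and Scd4 at most 140. Of the Scd2 runs, 2.66% also occur in Scd1. Scd2 had 36202.5 to 50283 normalised reads per library, against 328 to 615 for Scd1, so a small misplaced share of Scd2 reads could weigh on Scd1. How many reads were so placed was not tested. The share of ambiguous sequence was larger for Acaca, at 29.2% with the predicted gene Gm5182, and for Me1, at 21.1% with Gm7049, but these copies had at most 5.83 and 2.92 normalised reads.

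Fads1, the delta-5 desaturase, and Fads2, the delta-6 desaturase, act in sequence to make polyunsaturated fatty acids such as arachidonate. Fads1 (ENSMUSG00000010663, mm10 chr19:10182888-10196877, plus strand) had 10515 and 11651 normalised reads in Opa1 KO, against 8824 and 10777 in WT. Fads2 (ENSMUSG00000024665, mm10 chr19:10062765-10101746, minus strand) had 7079 and 9374 normalised reads in Opa1 KO, against 5839 and 8839 in WT. For both genes WT replicate 1 was the lowest library and Opa1 KO replicate 2 the highest, and the genotypes overlapped. Their log2 fold changes were 0.18 (SE 0.16, 95% interval -0.25 to 0.61) for Fads1 and 0.18 (SE 0.27, 95% interval -0.55 to 0.91) for Fads2. Leaving out WT replicate 1 turned the Fads2 difference to -0.12, and leaving out Opa1 KO replicate 2 turned it to -0.021.

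Srebf1 encodes SREBP-1, a membrane-bound factor that is released by cleavage and then activates the enzymes above, among them Fasn, Acaca and Scd1. Srebf1 (ENSMUSG00000020538, mm10 chr11:60199089-60222581, minus strand) had 5426 and 6634 normalised reads in Opa1 KO, against 4038 and 6404 in WT. WT replicate 1 was well below the other 3 libraries, and the 2 libraries numbered 2 nearly coincided. The log2 fold change was 0.24 (SE 0.27, 95% interval -0.49 to 0.97), and it was -0.094 without WT replicate 1. Of the Srebf1 exon bases, 1.93% lie opposite exons of Rai1, and the strand setting of the counting is not given in the sources used here. RefSeq gives Srebf1 windows at 3 start sites. The downstream window is shown because it alone of the 3 holds both an E-box form and CCAAT.
Srebf1, chr11:60210422-60210721, minus strand: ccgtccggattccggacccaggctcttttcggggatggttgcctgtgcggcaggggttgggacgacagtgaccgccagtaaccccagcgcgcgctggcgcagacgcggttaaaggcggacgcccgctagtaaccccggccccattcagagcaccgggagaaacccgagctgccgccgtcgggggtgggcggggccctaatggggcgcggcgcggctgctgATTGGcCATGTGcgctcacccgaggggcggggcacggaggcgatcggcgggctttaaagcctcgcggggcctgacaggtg
CATGTG stood at -24 in this window and CCAAT, on the other strand, at -30, and CATGTG was in 14.2% of all windows. Among the 7 genes with a window, CATGTG was found in Srebf1 and Me1.

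**Figure D2:**
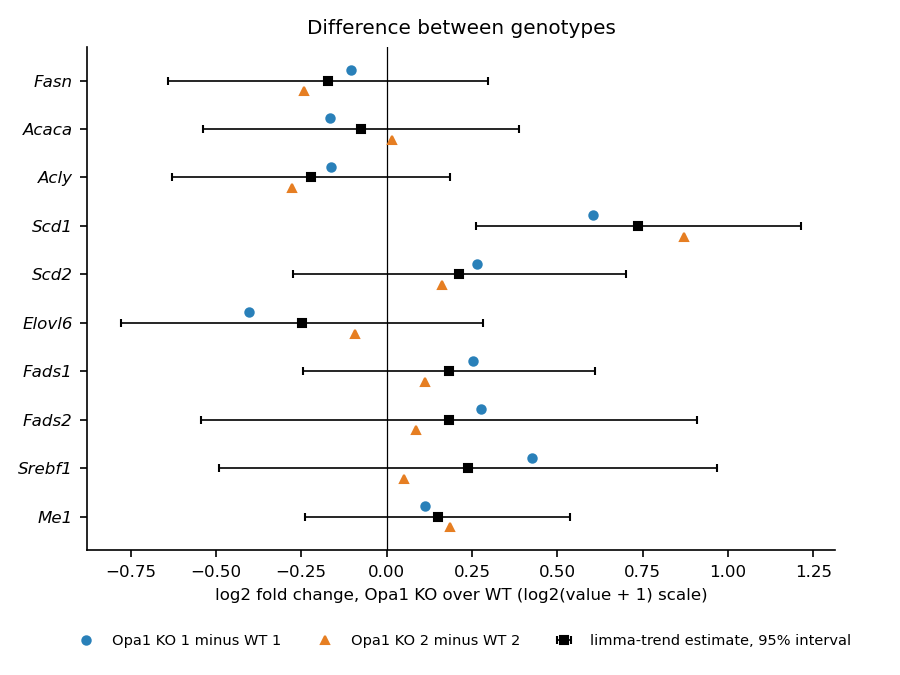
Log2 fold change (Opa1 KO over WT) of each gene, from log2(value + 1), with squares for the limma-trend estimate and its unadjusted 95% interval, circles for Opa1 KO replicate 1 minus WT replicate 1 and triangles for Opa1 KO replicate 2 minus WT replicate 2. The interval for Scd1 (0.26 to 1.21) lies above 0 and those of the other 9 genes include 0.

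The genes differed far more in level than between genotypes. Per kilobase of exon, which puts genes on a shared scale, Scd2 averaged 8582 normalised reads in Opa1 KO and 7427 in WT, within the highest 0.194% of the genes tested. Fads2 followed with 2497 in Opa1 KO and 2227 in WT, and Fads1 with 2303 in Opa1 KO and 2037 in WT. Over libraries, the Fads2 range of 1772 to 2845 covered that of Fads1, 1834 to 2421, so these neighbours did not differ beyond their spread. Acly (1219 in Opa1 KO and 1417 in WT) and Srebf1 (1070 in Opa1 KO and 927 in WT) came next, with ranges of 1109 to 1490 and 717 to 1178 that also overlapped. Fasn averaged 704 in Opa1 KO and 790.0 in WT, and its range of 622 to 845 overlapped that of Srebf1. The remaining 4 genes stood below it. Me1 averaged 248 in Opa1 KO and 224 in WT. Elovl6 (138 in Opa1 KO and 166 in WT) and Acaca (125 in Opa1 KO and 133 in WT) overlapped in range, though Elovl6 was the higher within every library. Scd1 was lowest in mean level, with 114 in Opa1 KO and 67.8 in WT. The higher Opa1 KO value of Scd1, 126, lay within the Acaca range of 116 to 149, and both WT values of Scd1 lay below it.

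Read by library, the genotypes did not overlap for 2 of the 10 genes, Scd1 as higher and Acly as lower. Across all genes tested 30.9% did not overlap, 15.2% as higher in Opa1 KO and 15.7% as lower, so the count for the fatty acid genes was below that background. With 2 libraries against 1 more genes fail to overlap, and the counts are read against their own background. Leaving out Opa1 KO replicate 1 gave 9 of the 10 genes (70.7% of all genes) and leaving out its replicate 2 gave 2 (53.1%). Leaving out WT replicate 1 gave 3 (60.3%) and leaving out WT replicate 2 gave 10 (77.7%). When libraries of the same number were set side by side, 9 of the 10 genes differed in the same direction in both comparisons, 6 as higher and 3 as lower, with Acaca as the exception. The share over all genes was 62.4%, with 29.3% as higher and 33.1% as lower. No label says that these numbers mark a batch or litter.

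Another pattern ran along the replicate number. In all 10 genes the library numbered 2 lay on the same side of the library numbered 1 in both genotypes, a property of 72.8% of all genes. Scd1, Scd2, Fads1, Fads2, Srebf1 and Me1 were higher in the libraries numbered 2. Fasn, Acaca, Acly and Elovl6 were lower in them, and these 2 groups are the same ones that differed in mean between the genotypes. For Srebf1, replicate 2 minus replicate 1 was 0.29 in Opa1 KO and 0.67 in WT on the log2 scale, which exceeds its difference between genotypes in both. For Fads2 the values were 0.41 in Opa1 KO and 0.60 in WT. For Fasn and Acaca the difference between replicates was also the larger in both genotypes. For Acly, Me1, Scd2, Fads1 and Elovl6 it exceeded the genotype difference in a single genotype only. Scd1 was the exception in size, with smaller values in both, 0.30 in Opa1 KO and 0.03 in WT, against a genotype difference of 0.74. From highest to lowest, the order Opa1 KO 2, WT 2, Opa1 KO 1, WT 1 held for Scd2, Fads1, Fads2, Srebf1 and Me1, and the reverse order for Fasn and Elovl6. Together these were 7 of 10 genes, beside 24.5% of all genes in either order. The orders were chosen after the values were seen, and the count was also 7 when values were scaled by library size or by TMM.

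Markers of several cell types also ran with the replicate number. All 6 ependymal markers, such as Foxj1, were higher in the library numbered 2 in both genotypes, with summed levels of 7172 and 26896 in Opa1 KO against 4691 and 29443 in WT. All 7 markers of cycling progenitors, such as Mki67, were lower in it, with summed levels of 50622 and 29098 in Opa1 KO against 62237 and 40057 in WT. The same held for all 7 endothelial markers as higher in the library numbered 2, and for all 7 microglial, 9 of 11 neuroblast and 10 of 13 oligodendrocyte markers as lower in it. Of the endothelial markers, 6 had the order Opa1 KO 2, WT 2, Opa1 KO 1, WT 1 from highest to lowest. Over all genes, 72.8% lay on the same side in both genotypes. Below that share were 7 of 12 neural stem cell and astrocyte, 3 of 8 pericyte and 2 of 6 oligodendrocyte precursor markers. Fatty acid genes and some marker lists, but not all, thus ran along the replicate number, in both directions. The part of any of these cells in the result was not tested.

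**Figure D3:**
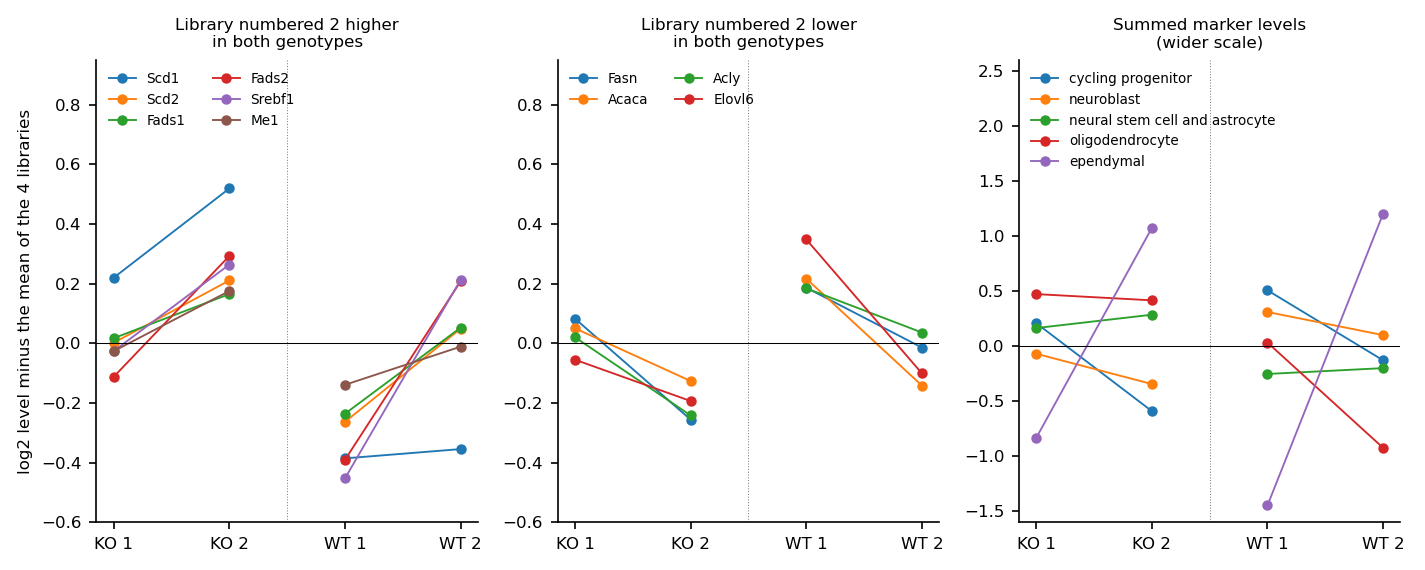
Log2 normalised read count of the fatty acid genes (left and middle) and log2 summed level of markers of 5 cell types (right, wider scale), each minus its mean over the 4 libraries, with lines that join the libraries of a genotype. The 6 genes at left are higher and the 4 in the middle lower in the library numbered 2 in both Opa1 KO and WT, and ependymal and cycling progenitor markers separate the same libraries.

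Several marker lists were higher in mean in Opa1 KO, as Scd1 was. All 13 oligodendrocyte markers, among them Mbp and Mog, were higher in mean in Opa1 KO, with summed levels of 68365 and 65738 in Opa1 KO against 50391 and 25970 in WT. All 8 pericyte markers, such as Pdgfrb, were higher in mean as well, with summed levels of 6670 and 6954 in Opa1 KO against 3786 and 2697 in WT. Endothelial markers summed to 2153 and 6001 in Opa1 KO against 1724 and 2631 in WT, with all 7 higher in mean, and all 7 microglial markers were higher in mean too, with 2502 and 1299 in Opa1 KO against 2234 and 736 in WT. Of 6 oligodendrocyte precursor markers 5 were higher in mean, with sums of 3569 and 4899 in Opa1 KO against 5475 and 2489 in WT. Both Opa1 KO values lay above both WT values in 7 pericyte and 12 oligodendrocyte markers, beside 15.2% of all genes tested. The same held for 1 microglial, 1 oligodendrocyte precursor and 0 endothelial markers. DESeq2 on all genes called 7 pericyte and 2 oligodendrocyte markers as higher, beside 0.913% of genes. Limma-trend and edgeR called 0 of the markers in these lists. The part of these cells in the Scd1 result was not tested.

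Genes around the pathway were read from lists. Of 10 genes that supply acetyl-CoA, malonyl-CoA or NADPH or that act in mitochondrial fatty acid synthesis, 5 were higher and 5 lower in mean. Their median log2 fold change was 0.0031, and limma-trend, edgeR and DESeq2 called 0 of them, with 0 at an unadjusted p under 0.05 by limma-trend. Idh1, the cytosolic isocitrate dehydrogenase that makes NADPH, had 6295 and 5230 normalised reads in Opa1 KO, against 8325 and 6798 in WT. The genotypes did not overlap, with Opa1 KO lower (log2 fold change -0.39, SE 0.17), as for Acly. Acss2, which makes acetyl-CoA from acetate, had a log2 fold change of 0.13, also without overlap but with Opa1 KO higher. Idh1 and Acss2 were the list's only genes without overlap, beside 15.7% of all genes tested as lower and 15.2% as higher. The pentose phosphate enzymes Pgd and G6pdx had log2 fold changes of -0.16 and -0.15.

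Elongases and further desaturation enzymes had the highest median of the 6 related lists. Of 16 listed, 15 were tested (Elovl3 was below the minimum), with 11 higher and 4 lower. Their median log2 fold change was 0.24, and in 8 of them both Opa1 KO libraries lay above both WT libraries, in 2 below. The shares over all genes tested were 15.2% above and 15.7% below. Limma-trend called 0 of them, with 2 at an unadjusted p under 0.05, and DESeq2 on all genes called 1. That gene was Degs1, the dihydroceramide desaturase of the sphingolipid pathway, with 2280.0 and 2472 normalised reads in Opa1 KO, against 1865 and 1741 in WT. Its log2 fold change was 0.40 (SE 0.12), with a DESeq2 adjusted p of 0.042. Elovl7, an elongase of saturated chains, had 705 and 1070.3 normalised reads in Opa1 KO, against 434 and 546 in WT (0.83, SE 0.27). Scd3 was at 30.5 and 41.2 in Opa1 KO, against 21.3 and 18.5 in WT (0.81, SE 0.34), and Elovl5, which lengthens polyunsaturated chains, had a log2 fold change of 0.24 (SE 0.12).

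Of 13 genes that control SREBP and related lipogenic transcription, 7 were higher and 6 lower, and the median log2 fold change was 0.0019. Limma-trend, edgeR and DESeq2 called 0 of them, with 0 at an unadjusted p under 0.05 by limma-trend. Mlxipl, which encodes the carbohydrate-responsive factor ChREBP, had 273 and 241 normalised reads in Opa1 KO, against 192 and 170.2 in WT (0.50, SE 0.20). Log2 fold changes were 0.42 for Thrsp, a lipogenic regulator, 0.43 for Nr1h3, the liver X receptor alpha, and 0.22 for Scap, which escorts SREBP to the Golgi. These 4, named by their p, were the list's genes with both Opa1 KO values above both WT values (15.2% of all genes tested). In 2 others, Srebf2 (-0.12) and Nr1h2 (-0.062), both Opa1 KO values were the lower (15.7% of all genes tested). Insig1, which retains SREBP in the endoplasmic reticulum, had the lowest log2 fold change (-0.46) with overlap. These 3 were named after their values were seen.

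Of 15 genes of fatty acid activation, binding and glycerolipid synthesis, 9 were higher and 6 lower, and the median log2 fold change was 0.065. Limma-trend called 0 of them, with 4 at an unadjusted p under 0.05, all as higher. Gpam, the mitochondrial acyltransferase that starts glycerolipid synthesis, had 6251 and 6204 normalised reads in Opa1 KO, against 4920 and 5074 in WT (0.32, SE 0.11), and was called by DESeq2 on all genes with an adjusted p of 0.016. Acsl6, an acyl-CoA synthetase of brain, had 6301 and 7476 normalised reads in Opa1 KO, against 3937 and 5166 in WT (0.61, SE 0.19). Acsl1 had 451 and 418 in Opa1 KO, against 322 and 278 in WT (0.53, SE 0.17), and Acsl3 a log2 fold change of 0.39 (SE 0.15). None of these 4 genes, picked by their small p, overlapped between genotypes. Over the 15 genes, 6 had no overlap as higher and 1 as lower, beside 15.2% and 15.7% of all genes tested.

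A pair of pathways that share regulation or substrate with these genes were set beside them. Cholesterol synthesis and uptake genes, which SREBP-2 drives, were lower in 16 of 19. Their median log2 fold change was -0.31, and 13 of them had no overlap between genotypes, as lower in Opa1 KO. Over all genes tested this share was 15.7%. Stard4, a cholesterol carrier, had 452 and 401 normalised reads in Opa1 KO, against 811 and 555 in WT (-0.66, SE 0.24), and Fdft1 and Mvk had log2 fold changes of -0.37 and -0.34. Limma-trend, edgeR and DESeq2 called 0 of the 19, with 2 at an unadjusted p under 0.05 by limma-trend.

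Genes of fatty acid oxidation were higher in 14 of 17, and the median log2 fold change was 0.14. Of them 9 had no overlap as higher and 1 as lower, beside 15.2% and 15.7% of all genes tested. Cpt1a, which admits fatty acids to mitochondria, had 2349 and 2817 normalised reads in Opa1 KO, against 1649 and 2221 in WT (0.43, SE 0.20). Hadh and Hadhb had log2 fold changes of 0.29 and 0.23. Limma-trend, edgeR and DESeq2 called 0 of the 17, with 0 at an unadjusted p under 0.05 by limma-trend, and the lists were not tested against each other.

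**Figure D4:**
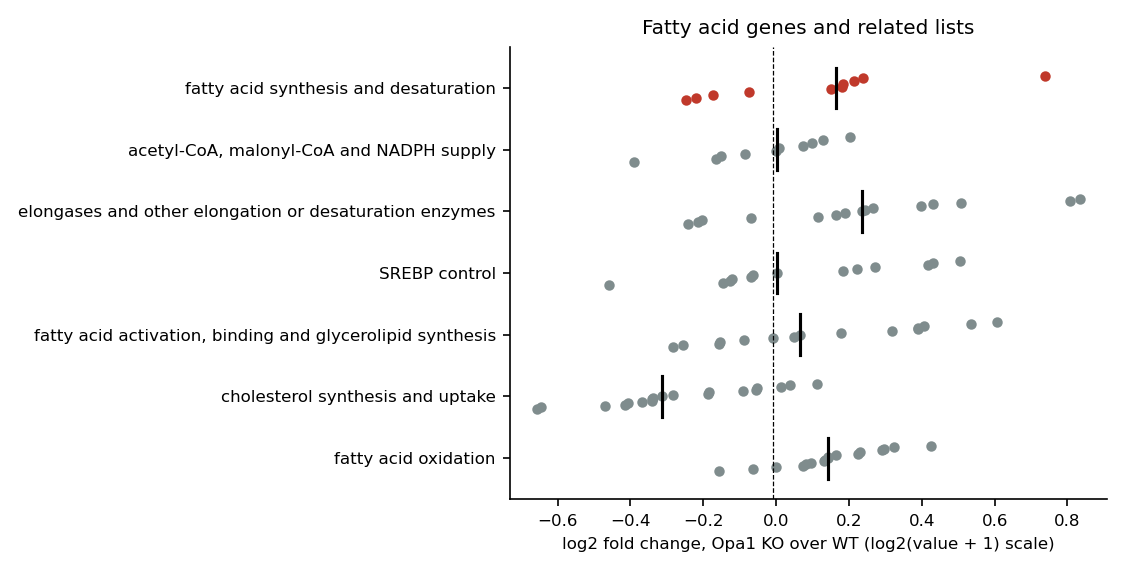
Log2 fold change (Opa1 KO over WT), from log2(value + 1), of each tested gene of the fatty acid list (red) and of 6 related lists (grey), with a bar at the median of each list and a dashed line at the median of all genes tested (-0.0073). The cholesterol genes have a median of -0.31 and the fatty acid genes 0.17, with Scd1 at 0.74 farthest from the rest.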

How the data were processed

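Bulk RNA-seq was measured in 2 Opa1 KO and 2 WT libraries, grouped and numbered by their titles. HISAT2, SAMtools, featureCounts, DESeq2 and mm10 are named in the submitters' processing notes. Not given in the sources used here were their versions, the annotation release and the strand setting. The deposited values are a normalised signal, the read count of each gene divided by the authors by 1 size factor per library. Whole reads were recovered for 100% of values within 1e-06. Of the identifiers, 55240 matched a symbol. Columns were mapped by sample descriptions, 12 other columns of per-sample values were not used, and the authors' fold change and p-value columns and 5 repeating or annotating files were not used.

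The test was limma-trend with robust moderation (limma 3.58.1, R 4.3.3) on log2(value + 1), two-sided, over the 18547 genes that reached 10 normalised reads in 2 or more libraries, with Benjamini-Hochberg adjustment at 0.05. Alternatives were edgeR 4.0.16, DESeq2 1.42.0, limma-voom, the replicate number as a block, other scalings, pseudocount 5, no filter, a minimum of 50 and leaving out each library. The members and the 16 gene lists were chosen with earlier results of these data known. All members are named, and of each further pathway list the 4 with the smallest unadjusted p and any gene that a tool called, of which a few are not reported here. Gene positions, exon bases and shared 50-base runs came from the GENCODE mouse annotation and transcripts of the mm10 build, which may not be the annotation the authors counted on, and promoter windows from RefSeq. Tests were also run on simulated counts with known changes. These counts were drawn independently for each library, without the shared deviations of same-numbered libraries found in these data.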

Additional observations from a re-analysis of the deposited data

How the results depend on the processing

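With 2 libraries per genotype, limma-trend and edgeR made no adjusted call, even for Opa1, so a gene without a call is not shown to be unchanged. Over all genes, 182 were called with the replicate block, 61 by DESeq2 on the genes limma tested, 214 by DESeq2 on all genes and 2 with no filter, against 0 in the limma-trend fit with genotype alone. Of the fatty acid genes, DESeq2 on all genes called 1 (Scd1, adjusted p 0.024, against 0.063 to 0.99999 under the other settings). Of 150 log2 fold changes of the 10 genes under these settings, 144 kept their direction and side of the threshold, 5 reversed and 1 passed it. Reversals came on leaving out WT replicate 1 (Acaca 0.10, Fads2 -0.12, Srebf1 -0.094) or Opa1 KO replicate 2 (Acaca 0.013, Fads2 -0.021). Over the libraries left out, Acaca ranged between -0.25 and 0.10, Fads2 between -0.12 and 0.48 and Srebf1 between -0.094 and 0.57. The cause was not tested. Leaving out 1 library moved the median log2 fold change to between 0.0076 and 0.27, and the number of genes whose genotypes did not overlap to between 2 and 10. Scaling by library size shifted the median of all genes to 0.045.

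Deviations of same-numbered libraries correlated at 0.72 over 18547 genes, which are not independent replicates. The labels tie the numbers to no animal, litter or batch, so this pairing is a hint from the data. With the replicate block, 0 fatty acid genes were called, the smallest adjusted p being 0.063 for Scd1. The count of fatty acid genes that do not overlap was not recomputed for the replicate block, edgeR, DESeq2 and limma-voom. Under pseudocount 5, no filter and a minimum of 50 the values compared are unchanged, so it stayed at 2.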
